A study of Canis lupus familiaris with 28 samples.

Results

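Genes of red blood cells and their youngest circulating form, the reticulocyte, were followed in the blood RNA of 28 dogs. The 8 gene names searched for were ALAS2, AHSP, HBB, SLC4A1, EPB42, CA1, GATA1 and KLF1, and every probe whose gene name in the scanner files equalled one of them was taken. Names of 6 genes were found, on 7 of 43603 probes. No probe was named HBB or GATA1, and no value is given for these genes.

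RNA from whole blood of 20 dogs with atopic dermatitis (AD dogs) and 8 healthy dogs was labelled with Cy5, and a pool of RNA from the blood of 13 healthy dogs, the common reference, was labelled with Cy3. Both were hybridized to a 2-color Agilent canine array, 1 array for each dog. All were client-owned dogs of various breeds and both sexes, the healthy dogs were blood donors, and AD dogs were sampled with signs of disease visible and without anti-inflammatory drugs in the preceding weeks. Blood counts of both groups lay within the reference range per the study's methods. The labels give no age, and neither sex nor breed is tied to single dogs. Values are log2 ratios of dog to common reference, centered on the median of each array, so that 0 is the level of the median probe and 1 unit is a doubling relative to it.

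Circulating mammalian red cells have lost their nucleus, and the RNA they carry is left from their precursors and is found mainly in reticulocytes. Precursors make heme in their mitochondria, combine it with globin chains to form hemoglobin, and build a membrane in which the anion exchanger band 3 anchors the skeleton underneath. Few transcription factors switch these genes on together. In RNA of unfractionated blood, transcripts of these genes can therefore be abundant, and their amount follows the reticulocytes present as well as the white cells that the RNA is shared with. More reticulocytes and more RNA in each reticulocyte cannot be told apart in such samples.

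The 7 probes of the red cell genes are printed here 5′ to 3′ as the scanner files give them, in lower case, each of 60 bases. In the second ALAS2 probe the letters GTGAGT, with which many introns begin, are in capitals. They start at base 52 of that probe, and 409 of the 43603 probes (0.938%) hold them on the printed strand.
ALAS2, first probe: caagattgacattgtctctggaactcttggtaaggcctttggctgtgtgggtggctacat
ALAS2, second probe: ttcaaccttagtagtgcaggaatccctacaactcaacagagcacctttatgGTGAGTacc
AHSP: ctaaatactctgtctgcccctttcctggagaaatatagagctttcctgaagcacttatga
SLC4A1: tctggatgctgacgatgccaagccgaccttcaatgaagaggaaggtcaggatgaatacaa
EPB42: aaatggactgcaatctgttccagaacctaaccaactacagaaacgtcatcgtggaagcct
CA1: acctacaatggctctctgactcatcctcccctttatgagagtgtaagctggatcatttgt
KLF1: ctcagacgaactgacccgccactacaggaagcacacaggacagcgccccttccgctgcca
No stretch of 20 bases of these 7 probes occurred in any other probe of the array, on either strand. Positions are those of the canFam3 build in the files, which name no exon or intron. Positions listed in descending order were taken as the minus strand, and this was the case for all of these probes except those of KLF1 and SLC4A1.

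The labels name whole blood, while the study's methods speak of RNA of nuclear cells. The brightest probe of each of the 6 genes was well above background for the dog's RNA on all 28 arrays. No spot of a red cell gene was saturated in either channel on any of the 28 arrays, and none was marked as an outlier. In healthy dogs, 84.3% to 90.3% of probes gave a signal well above background for the dog's RNA, and in AD dogs 51.7% to 87.4%. The 6 arrays of scan day 5, all of AD dogs, were at 63.2% or lower. The arrays lay on 8 slides and were scanned on 5 days, and each slide and each day held dogs of 1 group, so that group, slide and scan day cannot be told apart.

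Between AD and healthy dogs, none of the 6 red cell genes changed by the test. Of these, 5 had a higher mean in AD dogs, by 0.22 to 0.63 on the log2 scale, and CA1 was lower by a small amount. The difference was in each case smaller than the SD among the dogs of either group. Limma with Benjamini-Hochberg adjustment over 30202 probes called 0 of the 6 genes at an adjusted p of at most 0.085, a limit taken over from the results of the study, and 0 at 0.05. The background is the same, since 0 of 30202 probes (0%) passed at either threshold. The study itself reported differentially expressed transcripts at an adjusted p of 0.085, after its own filter. The cause of this difference was not tested. A log2 fold change of at least 0.5 was found for 2 of the 6 genes, ALAS2 and AHSP, and for 1.18% of all probes in this direction. At an unadjusted p under 0.05, 0 of the 6 genes passed, where 1.65% of all probes were higher and 4.46% were lower in AD dogs. The median log2 fold change (AD minus healthy) was 0.28 over the 6 genes and -0.01 over all probes tested.

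**Figure D1:**
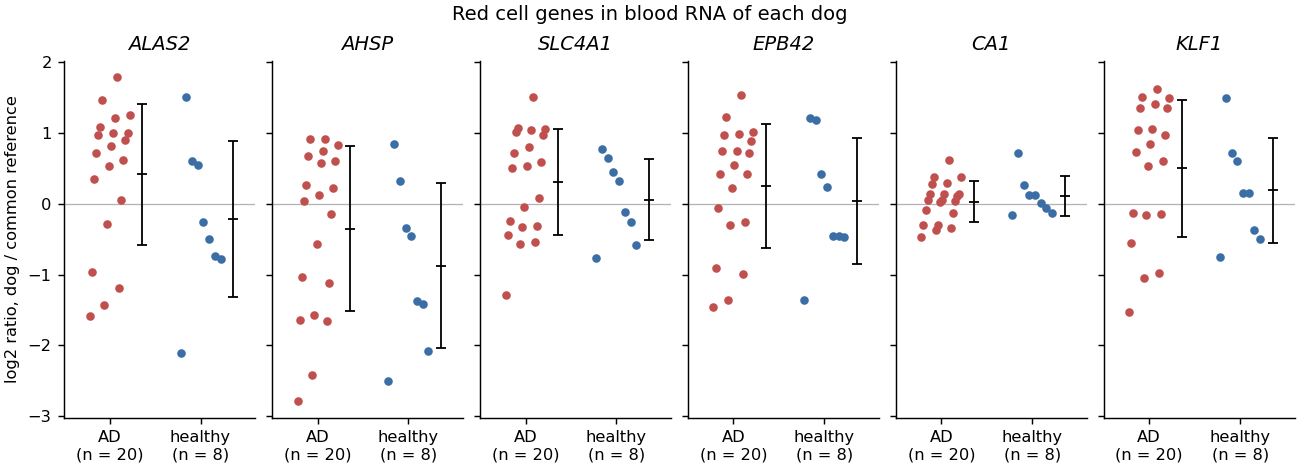
Log2 ratio of dog to common reference (y axis) for each of the 6 red cell genes, with 1 point for each of 20 AD dogs and 8 healthy dogs, and the mean with SD beside each group as bars. The groups overlap in all 6 genes, AHSP reaches lowest (-2.79 in an AD dog), and CA1 stays between -0.46 and 0.72.

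ALAS2 encodes the erythroid form of the enzyme that starts heme synthesis and sets its rate. Its first probe, at chrX:46709403-46710008, a range longer than the probe itself, was well above background on every array. The log2 ratio in AD dogs ran from -1.59 to 1.79 (median 0.78), and in healthy dogs from -2.11 to 1.52 (median -0.38). The groups overlapped, with 1 AD dog above all healthy dogs and 15 of 20 AD dogs above the mean of healthy dogs. Means were 0.42 ± 1.00 (SD, n = 20) for AD and -0.21 ± 1.103 (SD, n = 8) for healthy dogs, a log2 fold change of 0.63 (SE, standard error, 0.399; adjusted p = 0.866, limma). On a linear scale this is 1.55-fold, with a 95% confidence interval from 0.880-fold to 2.72-fold.

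Both channels of ALAS2 differed between the arrays of the 2 groups. The reference was the same pool on every array, yet its own centered log2 signal at this probe was higher by 0.42 on the arrays of AD dogs, while the signal of the dogs' own RNA was higher by 1.05. Over the 6 genes the reference channel differed by -0.05 (CA1) to 0.42 and the dog's channel by -0.13 (CA1) to 1.05. When the dog's channel was taken alone and quantile normalized between arrays, the ALAS2 difference was 0.70 (adjusted p = 0.266, limma).

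The second ALAS2 probe, at chrX:46702680-46702739, was dim. Of the dogs' signals, 11 of 20 from AD dogs and 6 of 8 from healthy dogs exceeded background, with median processed signals of 58.0 and 55.3, and it fell below the filter on signal. Its log2 ratio ran from -0.64 to 2.69 in AD dogs and from -1.29 to 0.67 in healthy dogs. Tested without the filter, it differed by 0.58 log2 units (SE 0.320; adjusted p = 0.767, limma).

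AHSP is the chaperone that holds free alpha globin until it meets its beta partner. Its probe lies at chr6:16745044-16745103, and its processed signal in the dog's channel ranged from 11672 to 168512 in AD dogs. The log2 ratio ran from -2.79 to 0.92 in AD dogs (median 0.08) and from -2.51 to 0.85 in healthy dogs (median -0.91). AHSP was the most widely spread of the 6 genes in AD dogs, over a 13.1-fold range, and only 2 AD dogs exceeded all healthy dogs. The means of -0.35 ± 1.17 (SD, n = 20) and -0.87 ± 1.17 (SD, n = 8) gave a log2 fold change of 0.52 (SE 0.453; adjusted p = 0.872, limma).

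Globin itself could be seen only through a gene outside the searched names. LOC609402, annotated in the files as hemoglobin subunit beta-like, had 2 probes and was added after its annotation had been seen. Beta-like globin genes are close copies of each other, the brighter probe at chr21:28182446-28182505 shared a stretch of 20 bases with 1 probe of another name, and its values may sum several copies. Its log2 ratio ran from -1.83 to 1.53 in AD dogs (median 0.43) and from -0.72 to 1.25 in healthy dogs (median 0.04), with a log2 fold change of 0.29 (SE 0.345; adjusted p = 0.892, limma). The other probe gave 0.28. With the dog's channel alone the sign turned, to -0.03.

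SLC4A1 encodes band 3, the chloride and bicarbonate exchanger of the red cell membrane. Its probe, listed at chr9:19156798-19157802, again longer than the probe, had a log2 ratio from -1.28 to 1.51 in AD dogs (median 0.52) and from -0.76 to 0.78 in healthy dogs (median 0.11). Of the AD dogs, 7 lay above all healthy dogs and 1 below. The means were 0.31 ± 0.74 (SD, n = 20) and 0.06 ± 0.57 (SD, n = 8), and the log2 fold change was 0.25 (SE 0.277; adjusted p = 0.887, limma).

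EPB42 encodes a peripheral membrane protein that binds band 3 and helps to tie it to the skeleton. At its probe, chr30:10065532-10065591, the log2 ratio ran from -1.46 to 1.54 in AD dogs (median 0.49) and from -1.36 to 1.22 in healthy dogs (median -0.11). Of the AD dogs, 2 lay above all healthy dogs and 1 below. The log2 fold change of 0.22 (SE 0.344; adjusted p = 0.918, limma) came from means of 0.26 ± 0.88 (SD, n = 20) and 0.04 ± 0.89 (SD, n = 8). It was 0.015 without healthy dog 2 and 0.38 without healthy dog 1.

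CA1, carbonic anhydrase I, is a soluble enzyme that interconverts carbon dioxide and bicarbonate. At chr29:31860603-31860662 its log2 ratio ran from -0.46 to 0.62 in AD dogs (median 0.06) and from -0.16 to 0.72 in healthy dogs (median 0.06). The medians were the same, and 5 AD dogs lay below all healthy dogs. The means were 0.03 ± 0.29 (SD, n = 20) and 0.11 ± 0.29 (SD, n = 8), with a log2 fold change of -0.08 (SE 0.127; adjusted p = 0.918, limma). The interval of this difference, from -0.34 to 0.18, was the narrowest of the 6 genes. The median processed signal of CA1 in the dog's channel was low, 234 in AD dogs and 276 in healthy dogs. For SLC4A1, which spread more widely, it was 269 and 172. The part of signal level in the narrow spread of CA1 was not tested.

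KLF1 is the erythroid Krüppel-like factor, a transcription factor that activates globin and many other red cell genes. At chr20:49298055-49298114 its log2 ratio ran from -1.53 to 1.63 in AD dogs (median 0.79) and from -0.75 to 1.495 in healthy dogs (median 0.15). Of the 20 AD dogs, 2 lay above and 3 below all healthy dogs. The means were 0.50 ± 0.96 (SD, n = 20) and 0.19 ± 0.74 (SD, n = 8), with a log2 fold change of 0.31 (SE 0.354; adjusted p = 0.887, limma).

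**Figure D2:**
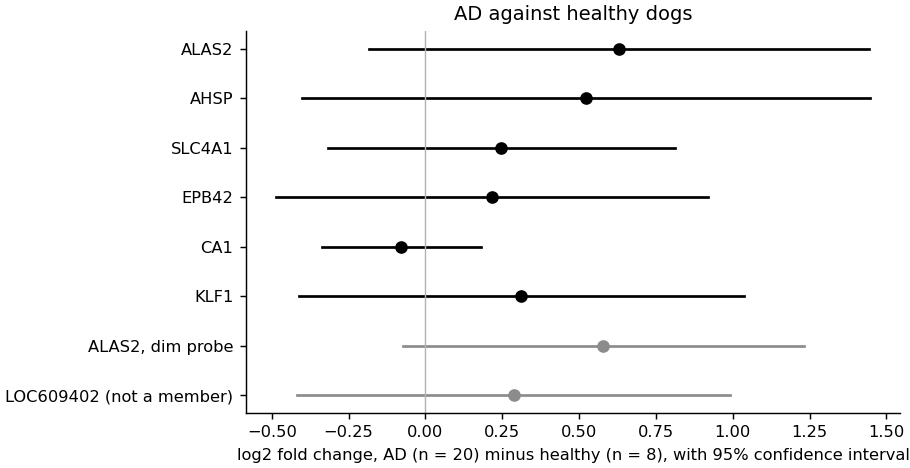
Log2 fold change of AD (n = 20) minus healthy dogs (n = 8) on the x axis, with its 95% confidence interval from limma, for the 6 red cell genes in black and, in grey, the dim ALAS2 probe and the beta-like globin gene. Every interval includes 0, and that of ALAS2 runs from -0.19 to 1.44.

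The red cell genes stood out by their spread among dogs rather than by a difference between the groups. The median SD of the 6 genes was 0.92 for AD and 0.82 for healthy dogs, against 0.43 and 0.30 over all probes tested. In AD dogs, 99.4% of probes had a smaller SD than AHSP, 98.0% than ALAS2, 97.5% than KLF1, 95.7% than EPB42 and 90.1% than SLC4A1. CA1 was the exception, with a smaller SD at 16.6% of probes only. In healthy dogs the same shares were 99.7% for AHSP, 99.6% for ALAS2, 98.9% for EPB42, 97.1% for KLF1, 92.0% for SLC4A1 and 46.2% for CA1.

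The spread was larger in the dog's channel than in that of the reference. The SD of the centered log2 signal across the arrays of AD dogs was 1.14 for AHSP in the dog's channel and 0.23 in the reference channel. For ALAS2 it was 1.01 and 0.35, for KLF1 0.96 and 0.20, for EPB42 0.86 and 0.20, and for SLC4A1 0.75 and 0.17. For CA1 the channels were closer, at 0.33 and 0.21.

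**Figure D3:**
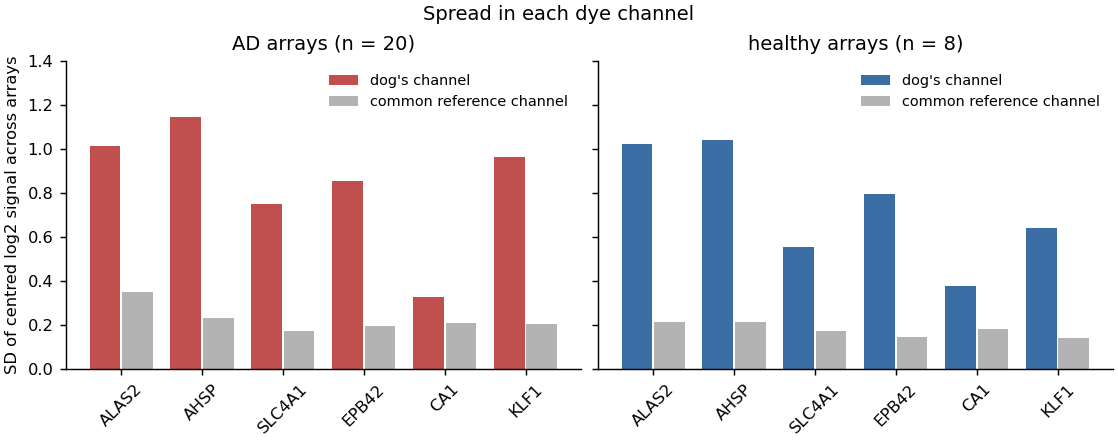
SD across arrays of the centered log2 signal (y axis) of the dog's channel (colored bars) and of the common reference channel (grey bars), for AD arrays (n = 20, left) and healthy arrays (n = 8, right). In both groups the dog's channel is the more variable for all 6 genes, least so for CA1.

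Among the 6 genes, 5 rose and fell together from dog to dog. Pearson's r and Spearman's rho were computed for 15 pairs in each group, 30 correlations in all, with two-sided permutation tests (100000 permutations in AD dogs, exact in healthy dogs) and Benjamini-Hochberg adjustment over the 30. All 10 pairs among ALAS2, AHSP, SLC4A1, EPB42 and KLF1 passed an adjusted p of 0.05 in AD dogs, with r from 0.734 to 0.955 (median 0.902) and rho from 0.696 to 0.908. All 10 also passed in healthy dogs, with r from 0.830 to 0.951 and rho from 0.857 to 0.976. Points share the array and its centering, as does every pair of probes.

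The closest pair in AD dogs was EPB42 and KLF1, a membrane protein and a transcription factor. Here r was 0.955 and rho 0.899, both with a permutation p of 1e-05, the smallest that these permutations can give (adjusted p = 4.29e-05 for r and 6e-05 for rho). The loosest of the 10 pairs was SLC4A1 and AHSP, with r = 0.734 (permutation p = 0.00023, adjusted p = 0.000627) and rho = 0.714 (permutation p = 0.00059, adjusted p = 0.00177). In healthy dogs ALAS2 and EPB42 had r = 0.951 (exact permutation p = 0.000446, adjusted p = 0.00112), and ALAS2 and AHSP had rho = 0.976 (exact permutation p = 0.000397, adjusted p = 0.00132).

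These 10 pairs kept a high r without the dogs at the ends of the range and within slides. Without the 2 dogs farthest from the median of the first gene of a pair, r was 0.628 to 0.931 in AD dogs and 0.677 to 0.953 in healthy dogs. With slide means removed, r was 0.702 to 0.963 in AD dogs and 0.812 to 0.965 in healthy dogs. Without the arrays of scan day 5 it was 0.701 to 0.958 in the remaining AD dogs.

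CA1 followed the others loosely. In AD dogs r with the 5 other genes was 0.368 to 0.538, and 2 of 5 pairs passed, with ALAS2 (r = 0.538, permutation p = 0.0149, adjusted p = 0.0213) and with SLC4A1 (r = 0.484, permutation p = 0.0303, adjusted p = 0.0414). By rho, 1 of 5 passed, with ALAS2 (rho = 0.507, adjusted p = 0.0345 by permutation). Without the 2 farthest dogs, r was 0.135 to 0.420 for the 5 pairs. Without scan day 5, and likewise without AD dog 9, 10, 18 or 20, 0 of 5 passed, and without AD dog 1, 6, 7, 12 or 13, 1 of 5 passed. With slide means removed, 4 of 5 passed by r (0.431 to 0.662), while rho was 0.168 (EPB42) to 0.478 (ALAS2). These permutations mixed dogs across slides and made no allowance for the slide means taken out. Their p-values are therefore too small, and the 4 are not read as a closer link. In healthy dogs 0 of 5 pairs passed by either measure, with r from 0.042 to 0.223 and adjusted p of at least 0.711 by exact permutation for r. Whether the correlations of CA1 differ between the groups was not tested.

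**Figure D4:**
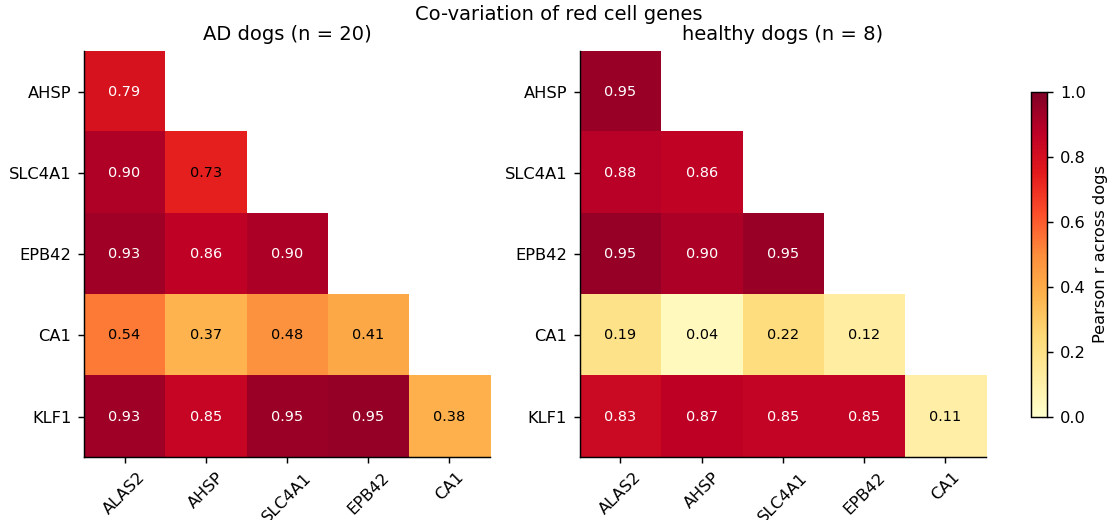
Pearson's r across dogs for each pair of the 6 red cell genes, as colored cells with the value printed, in AD dogs (n = 20, left) and healthy dogs (n = 8, right). The CA1 cells are pale in both panels, 0.37 to 0.54 on the left and 0.04 to 0.22 on the right, and all other cells are 0.73 or higher.

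The log2 ratio of the beta-like globin gene moved with those of the 5 genes as well. Its r was 0.868 (AHSP) to 0.950 (KLF1) in AD dogs and 0.831 (SLC4A1) to 0.957 (KLF1) in healthy dogs. With CA1 it was 0.405 and -0.030, given as a description over 20 and 8 dogs. The reference channel, the same pool on every array, varied widely at its brighter probe. In AD dogs the SD was 0.68 in the dog's channel and 0.56 in the reference channel. In healthy dogs it was 0.32 and 0.42, so the reference varied more than the dogs' own RNA. The part of the reference channel in these r values was not tested.

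The order of the dogs by the mean of the 6 genes was gradual, and both groups reached both ends. The largest gap between neighbors in this order was 0.34. The 5 lowest dogs were AD dog 18 (-1.42), AD dog 9 (-1.26), healthy dog 2 (-1.23), AD dog 11 (-0.89) and healthy dog 3 (-0.69). The 5 highest were AD dog 20 (1.17), AD dog 12 (1.04), healthy dog 1 (0.96), AD dog 15 (0.95) and AD dog 16 (0.93). The dogs at either end were picked by these values, and what follows describes them without a test.

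In the 5 lowest dogs, ALAS2 was between -2.11 and -0.73, AHSP between -2.79 and -1.65, EPB42 between -1.46 and -0.46 and KLF1 between -1.53 and -0.49. In the 5 highest, ALAS2 was between 1.22 and 1.79, AHSP between 0.22 and 0.92, EPB42 between 0.89 and 1.54 and KLF1 between 1.35 and 1.63. SLC4A1 was between -1.28 and -0.26 in the 5 low dogs and between 0.64 and 1.51 in the 5 high dogs. The ranges of CA1 at the ends, -0.34 to 0.12 and 0.01 to 0.62, overlapped. Counted over all dogs, the 5 genes other than CA1 were all above 0 in 9 of 20 AD dogs and 2 of 8 healthy dogs, and all below 0 in 5 AD dogs and 3 healthy dogs.

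**Figure D5:**
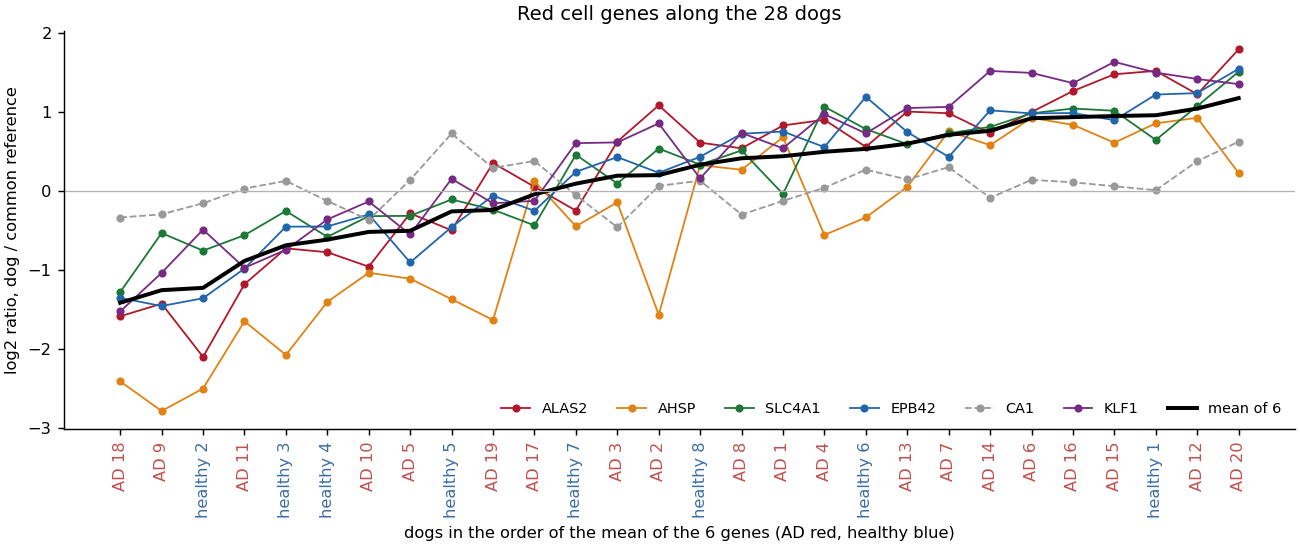
Log2 ratio of dog to common reference (y axis) of the 6 red cell genes, as colored lines, along the 28 dogs ordered by the mean of the 6 genes (black line), with AD dogs named in red and healthy dogs in blue. The lines of the genes other than CA1 climb together from left to right, AHSP dips in AD dogs 19 and 2, and CA1 (dashed) stays near 0.

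Low and high dogs lay on the same slides. On slide 5 AD dogs 9, 10 and 11 were at -1.26, -0.52 and -0.89 and AD dog 12 was at 1.04. Slide 8 held both the lowest and the highest AD dog, a range of 2.59, and slide 2 held both the lowest and the highest healthy dog, a range of 2.19. The moderated F test of slide within AD dogs called 0 of the 6 genes with 0.085 as the limit (limma; adjusted p from 0.427 for AHSP to 0.870 for CA1), where it called 5.28% of all probes.

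The signal level of the array was spread over both ends as well. The share of probes well above background was 62.7% to 90.3% in the 5 low dogs and 51.7% to 89.5% in the 5 high dogs. The 5 high dogs included 3 of the 6 arrays of scan day 5, and the 5 low dogs included 1. Of 12 correlations between a red cell gene and this share, 6 in each group, 0 passed an adjusted p of 0.05. In AD dogs r was -0.32 (CA1) to -0.11 (AHSP), and without the 2 farthest arrays -0.11 to 0.08. In healthy dogs r was -0.29 (CA1) to 0.02 (ALAS2), and without the 2 farthest arrays -0.52 (ALAS2) to -0.24 (SLC4A1). With slide means removed, r was -0.47 (SLC4A1) to 0.02 (CA1) in AD dogs and 0.04 (CA1) to 0.41 (SLC4A1) in healthy dogs, again with 0 of 12 past the adjusted threshold.

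AHSP left the common course in some dogs. It lay below ALAS2 by more than 1 log2 unit in 5 of 20 AD dogs and 1 of 8 healthy dogs. The difference, AHSP minus ALAS2, ran from -2.65 to 0.07 in AD dogs (median -0.62) and from -1.35 to -0.20 in healthy dogs (median -0.65). In AD dog 2, AHSP was at -1.57 while ALAS2 was at 1.08, SLC4A1 at 0.53 and KLF1 at 0.85. In AD dog 19, AHSP was at -1.64 and ALAS2 at 0.35. Both values are log2 ratios to the same pool, so the difference is relative to that pool and not a ratio of transcripts.

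Other genes of the red cell were taken from lists of the pathway. Of 51 list genes tested, 0 passed an adjusted p of 0.085, 1 had an unadjusted p under 0.05, and 44 had a positive log2 fold change, against 47.9% of all probes. The median over the 51 was 0.13. Their members are co-expressed, so the 44 are not independent of each other.

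The enzymes that complete heme synthesis, with the transporters that serve them, were all measured. All 10 had a positive log2 fold change and none passed the test (median 0.11). FECH, the ferrochelatase that inserts iron as the last step, had the smallest unadjusted p of the list, with means of 0.25 ± 1.22 (SD, n = 20) for AD and -0.36 ± 1.06 (SD, n = 8) for healthy dogs, and a log2 fold change of 0.61 (SE 0.457; adjusted p = 0.866, limma). The mean of this list followed the mean of the 6 genes across dogs with r = 0.950 in AD dogs and 0.933 in healthy dogs. Gene by gene, over all dogs with group means removed, r was negative for 2 of the 10, down to -0.49 for SLC25A38.

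Enzymes and proteins of late maturation numbered 15, of which 14 had a positive log2 fold change (median 0.32), none past the test. PKLR, the pyruvate kinase of red cells and liver, led this list by unadjusted p with 0.28 (SE 0.142; adjusted p = 0.838, limma) and 16 of 20 AD dogs above the mean of healthy dogs. The list followed the 6 genes with r = 0.970 in AD dogs and 0.926 in healthy dogs. BPGM, bisphosphoglycerate mutase, which makes the effector that lowers the oxygen affinity of hemoglobin, had r = 0.948 over all 28 dogs with group means removed.

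Genes of erythroid transcription and of iron uptake and erythropoietin signaling followed less closely. Of 6 transcription factors tested, 5 were positive (median 0.08), and the list had r = 0.726 in AD dogs and 0.337 in healthy dogs. BCL11A, a repressor of fetal globin, had the smallest unadjusted p (log2 fold change 0.10, adjusted p = 0.887, limma). Of 7 genes of iron uptake and erythropoietin signaling, 6 were positive (median 0.01), with r = 0.779 and 0.540. Gene by gene, over all dogs with group means removed, r was negative for 2 of the 7, down to -0.62 for STAT5B. STEAP3, a reductase of the endosome that acts on iron taken up with transferrin, was at 0.36 (SE 0.213; adjusted p = 0.866, limma). Of 8 globin genes other than HBB searched for by name, 0 were found.

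Membrane and skeleton genes numbered 13 tested, 9 with a positive log2 fold change (median 0.13), and the list followed the 6 genes with r = 0.922 in AD dogs and 0.935 in healthy dogs. RHAG, the glycoprotein that carries the Rh complex, was among those that went the other way. Its brightest probe ran from -0.84 to 0.15 in AD dogs (median 0.0049) and from -0.44 to 0.64 in healthy dogs (median 0.24), with a log2 fold change of -0.35 (SE 0.144; p = 0.0212 unadjusted in limma, adjusted p = 0.643). All 20 AD dogs lay below the mean of healthy dogs, and r with the 6 genes was -0.62. Over all dogs with group means removed, r was negative for 3 of the 13 genes, also for XK (-0.25) and SLC2A1 (-0.19).

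RHAG had 3 probes, and they disagreed. The stretch tcatgaataaataaataaaa of the brightest RHAG probe, shown because it sets the probes apart, occurred in 7 probes of the array under 6 gene or transcript names. It resembles the tail of SINEC repeats, which are scattered through the dog genome, but no repeat annotation was used here and this was not tested. The 5 probes with the stretch under names other than RHAG had log2 fold changes from -0.61 to -0.34 and r with the 6 genes from -0.68 to -0.34. Counting a match of 20 bases anywhere along the brightest RHAG probe, 11 probes under other names shared sequence with it, with log2 fold changes from -0.61 to -0.21 and r from -0.69 to -0.29. A second RHAG probe held the stretch, with a log2 fold change of -0.48 (adjusted p = 0.496, limma) and r = -0.68. The RHAG probe without the stretch had a log2 fold change of 0.20 (SE 0.258; adjusted p = 0.901, limma) and r = 0.844 with the 6 genes. All of these probes were examined after the values of RHAG had been seen, and no test is given for them as a set.

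The genes most like the 6 were sought among 10980 gene symbols by Pearson's r with the mean of the 6 genes, each scaled to an SD of 1, over 28 dogs with group means removed. Among the 10 highest were TMEM194B (0.963), ADIPOR1 (0.962), GLRX5 (0.959), IFRD2 (0.956), WISP2 (0.951), GLTSCR1 (0.950), BPGM (0.948), PRAF2 (0.948) and PARD3B (0.947). GLRX5 is a glutaredoxin of mitochondrial iron-sulfur cluster assembly, and ADIPOR1 is an adiponectin receptor. In all, 786 symbols had r above 0.8. These values describe likeness over 28 arrays that share their centering, and no test was made.

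Markers of other blood cells did not share this course as lists. Across AD dogs, r between the T cell list and the 6 genes was -0.042, and across healthy dogs -0.003, and for B cells it was -0.192 and 0.149. For neutrophils r was 0.166 and -0.243, and for NK and cytotoxic cells 0.054 and 0.104. In the 8 healthy dogs r was -0.742 for eosinophils, basophils and mast cells, -0.638 for platelets and -0.531 for monocytes, and in the 20 AD dogs it was -0.253, -0.013 and -0.293. All 6 platelet genes tested were lower in AD dogs (median -0.30), 0 of them past the test. The mean level of the platelet list ran from -1.01 to 0.63 in AD dogs and from -0.93 to 0.77 in healthy dogs. No marker tested was below background on all arrays, and the part of other cells in the values of red cell genes was not tested.

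A single marker departed from its list. CD68, a lysosomal protein of monocytes and macrophages, had r = 0.879 with the red cell genes over 28 dogs, while the other 5 monocyte genes were negative, down to -0.792 for LYZ. The CD68 probe shared no stretch of 20 bases with another probe. This gene was singled out after its values had been seen.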

How the data were processed

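The authors scanned the arrays and extracted them with Agilent Feature Extraction 10.7.3.1 per the labels. The deposited values are spot intensities, which Feature Extraction had corrected for background and for dye bias by Lowess, and a log10 ratio of the channels. The log10 ratio deposited by the authors matched the one calculated from processed signals to 0.001 at 94.2% of spot values. The log2 ratio of dog to reference was calculated here from the intensities deposited by the authors.

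Control spots were left out, spots of 1 probe were averaged and spots with an outlier mark were set to missing. In a filter modelled on the study's methods, which may not keep the same probes, probes were removed where all 4 medians of the processed signal (each channel, each group) were at most 100, or where no array was above background, which left 30202 of 43603 probes. Arrays were centered on their median over these probes. AD and healthy dogs were compared over all 28 arrays with lmFit and eBayes (R 4.3.3, limma 3.58.1). A gene was represented by its brightest unsaturated probe that passed the filter. Correlations were tested by permutation with numpy 2.4.6. The scripts for the limma comparison of AD with healthy dogs and for the permutation test were tested on simulated data.

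Named were all red cell genes searched for, the gene of each pathway list with the smallest unadjusted p and the 10 symbols most like the 6 genes. Some of these are not reported here. Other names were chosen after their values had been seen. The genes and lists were chosen with earlier results of these data known. Alternatives varied the filter, outlier marks, background correction and dye normalization, centering, use of the reference, source of values, probe choice, slide, scan day and dog number as blocks, array weights, and dogs and slides left out. The number of arrays, 20 and 8, limits the precision. Nothing in the labels ties dogs to shared litters, and numbers of AD and healthy dogs did not pair them.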

Additional observations from a re-analysis of the deposited data

How the results depend on the processing

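None of the 6 red cell genes passed the adjusted threshold of 0.085 in limma under any of 24 alternatives or without any 1 of the 28 dogs (0 in each case, the lowest and the highest). At an unadjusted p under 0.05, 1 passed with the dog's channel alone (SLC4A1), with array weights, without slide 5 and without healthy dog 1 (ALAS2 in each), and 2 passed with the replicate block (ALAS2 and AHSP). Over all probes the count was 0, and 0 without each dog in turn, but 3 with no filter on signal, 1251 with the dog's channel alone and 1009 with array weights. The cause was not tested.

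Of 306 recomputed log2 fold changes of the 6 genes, 302 kept their sign. Without slide 2, SLC4A1 went to -0.054, EPB42 to -0.091, AHSP to 0.11 and ALAS2 to 0.32, and without slide 3, CA1 went to 0.073. Without healthy dog 5, CA1 was 0.0081, and leaving out 1 dog gave CA1 values from -0.12 to 0.0081. ALAS2 ran from 0.36 without healthy dog 2 to 0.88 without healthy dog 1, and without the same dogs AHSP ran from 0.29 to 0.77 and EPB42 from 0.015 to 0.38. Outside the searched names, LOC609402 went to -0.032 with the dog's channel alone. With dog number as a replicate block over 8 pairs, ALAS2 was 0.92 (adjusted p = 0.216, limma) and 0 probes passed. Deviations of dogs with the same number correlated from -0.36 to 0.42, 4 of 8 above 0.1, so the number was not taken to pair dogs.

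Of 15 pairs of red cell genes in AD dogs, 12 passed, 10 to 14 under 7 alternatives and 10 to 12 when 1 dog was left out. The 14 came with slide means removed, where the permutations made no allowance for those means. The pairs that lost their call were in each case pairs with CA1. The median SD of the 6 genes was 0.79 with normexp and loess and 0.85 without scan day 5, against 0.92. The alternatives that left out the 7 arrays with under 65% of probes above background, varied the correlations with array quality, the slide test or the spread were chosen after seeing the data, and none of these moved a call. With 8 healthy dogs, the 95% intervals of ALAS2 and AHSP reached 2.72-fold and 2.73-fold, so that differences up to that size were not excluded.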
